A study of Mus musculus with 12 samples.

Results

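The step from late gestation to birth was followed in mouse kidney by comparing 1 array of kidney on the day of birth (P0) with 1 array of kidney from late gestation (E17.5, named by days after conception). Both RNAs came from whole kidneys of wild-type ICR mice, an outbred strain, dissected free of the ureter, with no treatment or transgene in either. The labels do not say whether several kidneys or animals were pooled, nor how old in hours the newborns were. Genes entered the comparison where a scanner flag marked the signal as well above background on at least 1 of the 2 arrays, which kept 19896 of the 27286 genes on the array. The same one-colour Agilent series also holds fresh E11.5, E13.5 and E15.5 kidney (1 array each), E11.5 kidney after 7 days of culture, and organoids assembled from stem cell-derived progenitors and E11.5 stroma, uncultured (n = 3) and after 7 days of culture (n = 3). The earlier kidney stages give the course of each gene, and the organoid replicates show how far arrays of one group differ.

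At birth the placenta stops clearing waste and supplying glucose, and the newborn lives on its own stores and on fat-rich milk. The kidney then takes over salt, water and acid balance, and its proximal tubule, which reclaims filtered glucose, amino acids, phosphate and protein, burns fatty acids and can release glucose. In mice nephrons are still being formed at birth from progenitors under the kidney capsule, so young and maturing nephrons lie side by side in a whole newborn kidney.

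Levels are log2 processed signal minus the 75th percentile of the same array, so 0 is the level of that percentile, and differences are P0 minus E17.5 on that log2 scale. A probe's level is compared only with the same probe on another array, since probes differ in how strongly they bind. With 1 array per stage there is no test and no p-value, and "higher" and "lower" in a count mean at least 2-fold. At P0 852 genes were higher (4.28%) and 704 lower (3.54%), which together made 7.82% of the genes compared, and the median difference was -0.06. These shares are the background for every list count below, where a single member past 2-fold says little. With another background correction (normexp) the counts were 322 higher and 77 lower, so that 80.7% of the genes past 2-fold were higher, against 54.8% here. At 4-fold the counts were 217 higher and 241 lower. Both arrays lay on the same slide, and 61.9% of probes on the E17.5 array and 60.2% on the P0 array were well above background.

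**Figure D1:**
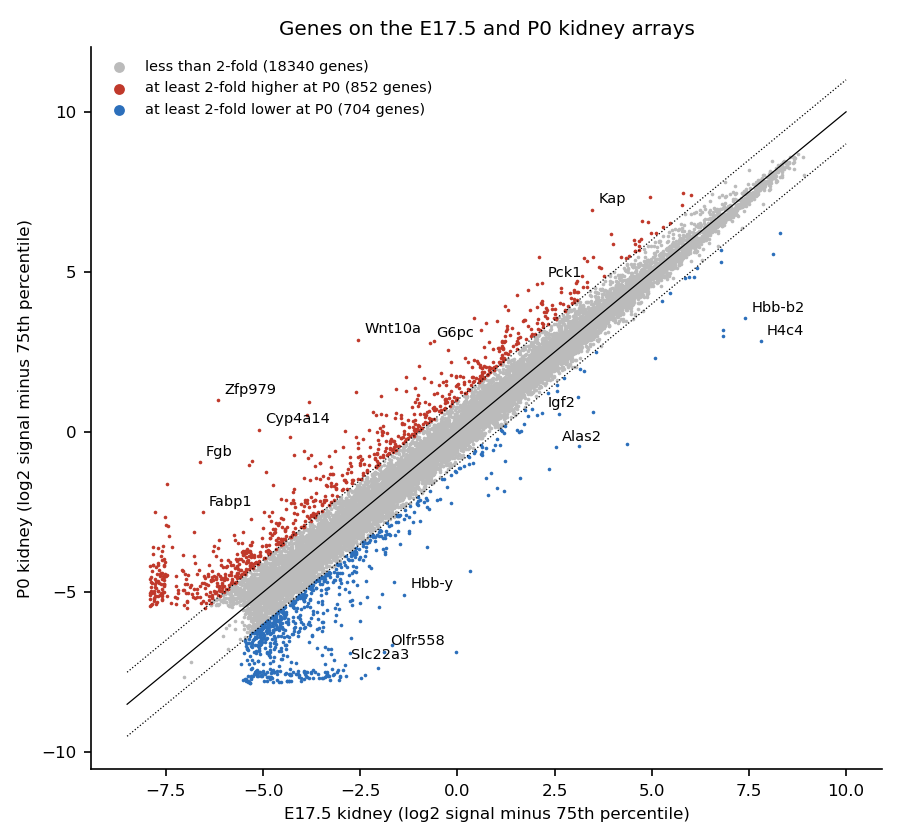
Level of each of 19896 genes on the E17.5 array (x axis) and the P0 array (y axis), both as log2 signal minus the array's 75th percentile. The solid line marks equal levels and the dotted lines 2-fold differences. The 852 genes higher at P0 are red and the 704 lower are blue, and many of the blue points lie in a band at the bottom of the plot, where the P0 signal was not well above background.

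How much of this could be array noise was gauged from the organoids, in which pairs of replicate arrays differed by at least 2-fold for 2.88% to 4.28% of genes. The answer depended on signal. Among the 10248 genes whose brighter array was at or above the 75th percentile, 311 were higher and 69 lower at P0, 3.71% in all, while the 6 replicate pairs had 0.16% to 0.706%. Among the 18641 genes well above background on both kidney arrays, 587 were higher and 281 lower (4.66%), against 0.661% to 1.57% in replicate pairs. Among the 1255 genes above background on 1 array only, 265 were higher and 423 lower (54.8%), and the replicate pairs there had 38.2% to 49.7%. Differences of dim genes seen on a single array were therefore little more frequent than between replicates, and the accounts below rest mainly on genes measured on both arrays. Single genes varied in this respect. Their largest difference over the 6 replicate pairs was taken whether or not the gene was above background on the organoid arrays. It can therefore reflect dim organoid signal even where the kidney signal was bright. For some genes named below, the largest difference between replicate organoid arrays was above the kidney difference, as for Gatm (2.22 beside 2.06), Fbp1 (1.82 beside 1.41) and Cubn (2.22 beside 1.36). For others it was below, as for G6pc (1.78 beside 3.49) and Slc7a7 (0.39 beside 2.02). Kidney arrays may vary more or less than organoid arrays, and the labels do not say whether organoid replicates were separate cultures.

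**Figure D2:**
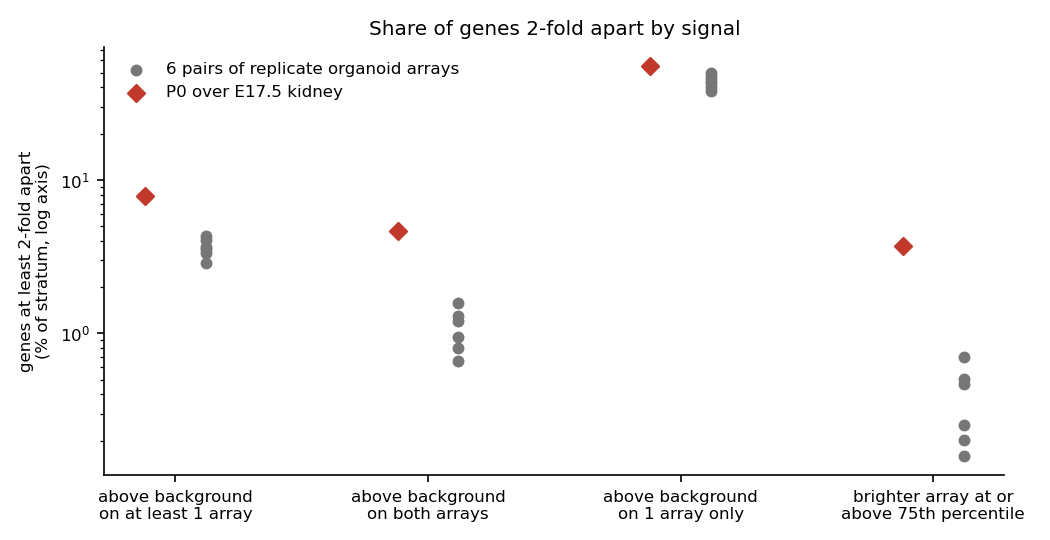
Percent of genes at least 2-fold apart (y axis, log scale) in 4 strata of signal, for P0 against E17.5 (red diamonds) and for the 6 pairs of replicate organoid arrays (grey points). For bright genes the kidney pair reached 3.71% and the replicate pairs at most 0.706%, while for genes above background on 1 array the kidney pair (54.8%) lay just above the replicate pairs (up to 49.7%).

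Genes of glucose production and of linked metabolism were higher in the newborn kidney. Of 13 measured members of a list of gluconeogenesis and fructose metabolism 7 were higher and none lower, with a median difference of 1.27, beside 4.28% higher and a median of -0.06 over all genes compared. The promoters of Pck1, of the glucose list, and Fabp1, of the fatty acid list described next, are shown because each holds a motif known from its pathway. They are the 250 bases before the start of the gene in the RefSeq table for GRCm38.p6, a later build than the mm9 named in the array headers, and were matched by symbol. Capitals mark a match to TNACGTCA in Pck1, a form of the cyclic AMP response element, and a match in Fabp1, on the opposite strand, to the DR1 element (AGGNCA, any base, AGGNCA), bound by HNF4 and PPAR receptors.
Pck1, chr2:173152823-173153072, plus strand: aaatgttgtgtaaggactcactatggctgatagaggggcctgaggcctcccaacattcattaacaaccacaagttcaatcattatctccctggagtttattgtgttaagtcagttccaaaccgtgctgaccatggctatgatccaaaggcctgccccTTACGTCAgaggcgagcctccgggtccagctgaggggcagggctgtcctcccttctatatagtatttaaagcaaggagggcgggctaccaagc
Fabp1, chr6:71199629-71199878, plus strand: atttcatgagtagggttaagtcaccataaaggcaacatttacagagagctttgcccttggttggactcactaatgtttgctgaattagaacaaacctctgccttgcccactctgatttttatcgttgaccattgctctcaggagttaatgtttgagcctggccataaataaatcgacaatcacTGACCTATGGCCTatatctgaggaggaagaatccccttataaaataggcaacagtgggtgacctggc

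Both strands were searched, and a match is a run of letters, not a bound site. TNACGTCA was in 2.92% of all 27025 entries of the table, in 0.859% of the 582 genes higher at P0 that had an entry, in 2.34% of 427 lower genes and in 4.14% of all 13568 compared genes with an entry. Of the 12 genes of the glucose list with an entry Pck1 alone held it, at -93 to -86 from the start. The DR1 element was in 0.4% of all entries, in 1.03% of higher genes (6 of 582), in 0.937% of lower genes (4 of 427) and in 0.383% of compared genes. Differences between these shares, which rest on few genes, were not tested. Of 21 fatty acid genes with an entry Fabp1 alone held it, at -67 to -55.

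G6pc, the glucose-6-phosphatase that frees glucose for export, had levels of -5.06, -6.16, -3.32, -0.70 and 2.79 on the 5 arrays in order of stage, so that it was 11.3-fold higher at P0 than at E17.5. Pck1, the cytosolic enzyme that commits carbon to glucose synthesis, stood at -7.22, -5.02, 0.00, 2.17 and 4.65, a 5.58-fold difference over the last step. Both genes had climbed at each step since E13.5, and P0 was their highest stage. Miox, which opens the breakdown of inositol in the tubule, went from 4.96 to 7.35 (5.26-fold), and Gatm, the first enzyme of creatine synthesis, from 1.26 to 3.32 (4.16-fold). Fbp1, the fructose bisphosphatase of gluconeogenesis, was 2.65-fold higher, at 7.41, and Pcx, which makes oxaloacetate from pyruvate, from 4.57 to 5.87. The 7 genes thus included the enzymes that bypass the irreversible steps of glycolysis (G6pc, Pck1, Fbp1 and Pcx). The others, Miox, Gatm and Khk, are not enzymes of glucose synthesis. Khk, the fructose kinase, differed by 1.27 by its brighter probe and by -0.14 by its other probe, so its place among the 7 rests on 1 probe. The coactivator Ppargc1a differed by 0.49 and Foxo1, a factor that insulin holds out of the nucleus, by -0.10.

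Genes of fatty acid oxidation and ketone synthesis, many of them targets of the fat-sensing receptor PPAR alpha, made up the second such group. Of 29 measured members 13 were higher and 1 lower, and the median difference was 0.94. Cyp4a14, which oxidises the far end of fatty acids, was between -6.67 and -5.10 on the 4 embryonic arrays and at 0.08 at P0, 36.1-fold above E17.5. Angptl4, a secreted inhibitor of lipoprotein lipase, had drifted down from 3.01 at E11.5 to 1.81 at E17.5 and then stood at 4.43 at P0 (6.15-fold). For Cyp4a14 and Angptl4, and for Vnn1, Pdk4 and Ehhadh among others, the last step was the largest rise of the course. Some members had also climbed by over 2-fold from E15.5 to E17.5. Among them were Cyp4a10 (0.02 to 1.68), the fatty acid carrier Fabp3 (3.41 to 5.11) and Ehhadh (-1.43 to -0.16).

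Vnn1, a pantetheinase and classical PPAR alpha target, went from -1.31 to 1.29 (6.08-fold). Fabp1, the fatty acid carrier of liver and tubule, was not well above background at E17.5 and reached -2.49 at P0, at least 16.7-fold higher. Here and below such a bound takes the dim side at its own signal or at the lowest signal called above background on that array, whichever is higher. Noise in that dim signal is not covered, so "at least" is relative to the value taken and is not a strict limit. Ehhadh, a peroxisomal oxidation enzyme, differed by 2.34, and Pdk4, which blocks the use of pyruvate as fuel, by 2.08. Cpt1a and Cpt2, which carry fatty acids into mitochondria, differed by 1.31 and 1.18, and Acadvl, which starts the oxidation of long chains, by 1.1. Acadm, its partner for medium chains, differed by 0.90. Acsm3, a medium-chain acyl-CoA synthetase, was the lower member at -1.06. Ppara, which encodes the receptor, was at -0.32 and -0.31 by its brightest probe, and its 3 probes differed by 0.02 to 0.65. Of the Cyp4a family, gathered by symbol after the values were seen, 4 of 6 measured genes were higher and none lower, among them Cyp4a32 (3.03) and Cyp4a10 (1.80), though near-identical Cyp4a copies may share signal.

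**Figure D3:**
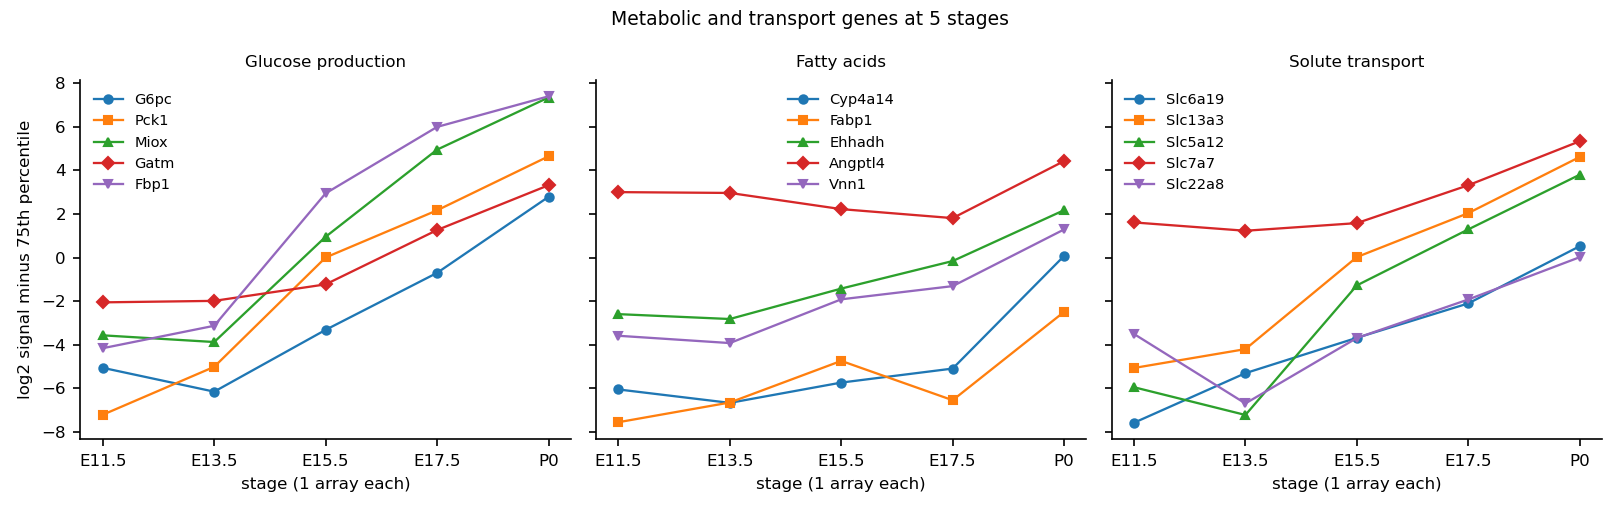
Levels (log2 signal minus 75th percentile) of 5 genes of the glucose list, 5 of fatty acid use and 5 of solute transport at 5 stages, with 1 array per stage. The panel titled glucose production also holds Miox and Gatm, which act in inositol breakdown and creatine synthesis. The genes of the glucose list and the transport genes climbed over several stages, whereas Cyp4a14, Fabp1 and Angptl4 stood higher at P0 than at any earlier stage after a small, flat or falling step to E17.5.

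The solute carriers of the proximal tubule formed the list with the largest share of higher members. Of 26 measured members 19 were higher, none was lower and all 26 differed upwards, with a median of 1.19. Slc6a19, the sodium-driven carrier of neutral amino acids, stood at -7.59, -5.31, -3.69, -2.11 and 0.52 over the 5 stages, 6.17-fold higher at the last step. Slc13a3, the dicarboxylate carrier, went from 2.04 to 4.62 (5.97-fold), and Slc5a12, a lactate carrier of the brush border, from 1.29 to 3.80, with 2 probes at 2.25 and 2.51. Slc7a7, the basolateral exit for cationic amino acids, was nearly level from E11.5 to E15.5 (1.61, 1.23 and 1.58) and then stood at 3.32 and 5.34. The glucose carrier Slc5a2 differed by 1.39, and the organic anion carriers Slc22a8 and Slc22a6 by 1.94 and 1.28. The phosphate carrier Slc34a1 differed by 1.01 by one probe and 0.84 by the other, just at the 2-fold line. Slc5a1, the glucose carrier of the later straight segment, differed by 0.14.

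In whole tissue, more cells of a type and more RNA per cell cannot be told apart, here and for every other cell type below. Across the organic ion carriers of the Slc22 family, again gathered after the values were seen, 16 of 23 measured genes were higher, with Slc22a29 (3.05) and Slc22a27 (2.47) at the top. Slc22a3, a cation carrier, was the one lower member and is taken up with the genes that alternated between stages.

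Among brush border and endocytosis genes 5 of 21 were higher and none lower, with a median of 0.68. Kap, a kidney gene under androgen control, stood at -6.27, -7.38, -3.90, 3.46 and 6.95, and so had already risen steeply by E17.5 before the last 11.2-fold. Cyp27b1, which makes active vitamin D, went from -2.27 to 0.05 (4.99-fold). The protein uptake receptors Cubn and Lrp2 differed by 1.36 and 1.08. Xenobiotic and antioxidant enzymes were higher in 11 of 29 cases and lower in 1, with a median of 0.84. Gpx3, the secreted glutathione peroxidase of plasma that tubules make, went from 3.96 to 6.19 (4.71-fold). The metallothioneins Mt1 and Mt2 had dipped from 6.16 and 6.03 at E15.5 to 5.82 and 4.91 at E17.5 and stood at 7.45 and 6.57 at P0. Ugt2b38, a glucuronosyltransferase, was the lower member (-1.04).

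Further along the nephron 9 of 23 genes of the loop of Henle and the distal convolution were higher and none lower, with a median of 0.80. Umod, the most abundant protein of normal urine and a product of the thick ascending limb, stood at -4.38, -3.73, 0.01, 3.48 and 5.47 (3.99-fold at the last step). Pvalb and Calb1, calcium-binding proteins of the distal tubule, differed by 1.97 and 1.56, and by 2.25 and 1.34 on their second probes. Trpm6, the magnesium channel, differed by 1.53, Slc12a3, the target of thiazide diuretics, by 1.30 and Slc12a1, the target of loop diuretics, by 0.72. Intercalated cell genes were higher in 3 of 16 cases, namely Aqp6 (2.25), the bicarbonate exchanger Slc26a4 (1.78) and the carbonic anhydrase Car2 (1.07), with a list median of 0.61. Principal cell and urothelial genes had a median of 0.14, and Scnn1a, a subunit of the epithelial sodium channel, was the one of 19 that was higher (1.12). That is near the 4.28% higher over all genes compared. The water channel Aqp2 differed by 0.56 and the vasopressin receptor Avpr2 by 0.80.

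In the glomerulus 2 of 18 podocyte genes were higher, and the median was 0.11. They were Col4a3 (1.64) and Col4a4 (1.45), chains of the mature basement membrane collagen, whose levels had climbed since E13.5. Other probes of Col4a4 went down to 0.68. Nphs1, a slit diaphragm protein, differed by 0.27 and the podocyte factor Wt1 by -0.28. Endothelial genes (15) and fibrillar matrix genes (17) had no member past 2-fold, with medians of -0.06 (0.04 with arrays scaled to the median) and -0.18. The tubule lists and the podocyte list thus gave different counts, but a difference between lists was not tested.

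**Figure D4:**
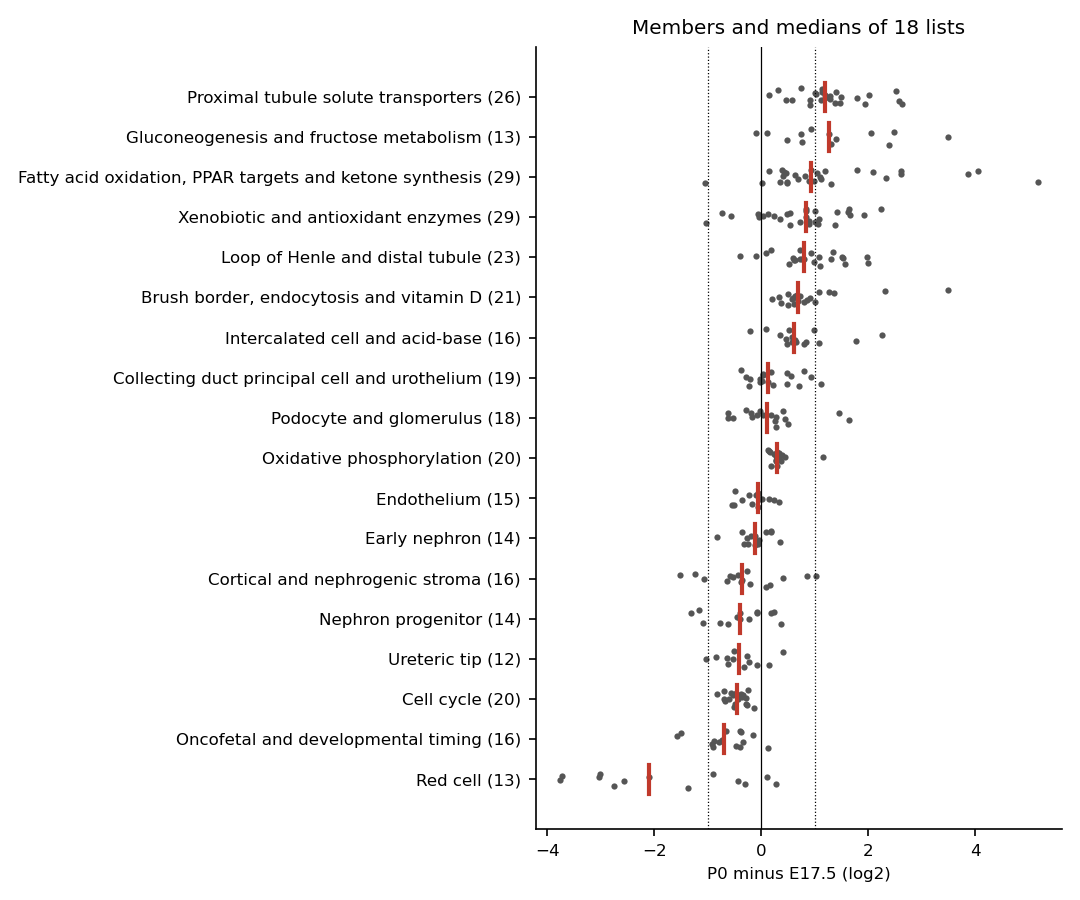
P0 minus E17.5 (log2, x axis) for each measured member (points) of 18 gene lists, with the number of members in parentheses and the list median as a red bar. Dotted lines mark 2-fold. Proximal tubule, glucose and fatty acid lists have medians of 0.94 to 1.27, podocyte and collecting duct lists 0.11 and 0.14, and the red cell list -2.09.

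Of 16 transcription factors of mature epithelium 2 were higher and the median was 0.36, beside 4.28% higher and 7.82% past 2-fold either way over all genes compared. Nr1h4, the bile acid receptor FXR, went from 0.16 to 1.55. Esrrb, an orphan nuclear receptor, differed by 1.02 by its brighter probe and by -2.60 by another, so its direction depends on the probe. Hnf4a, a factor of the proximal tubule, differed by 0.31. Of 16 glucocorticoid and thyroid hormone targets the 2 higher ones were Thrb (1.12, and 0.69 by its other probe), a thyroid hormone receptor, and Thrsp, which was not above background at E17.5. The glucocorticoid targets Tsc22d3 and Fkbp5 differed by 0.08 and 0.02. None of 14 clock genes and none of 15 immediate early and heat shock genes passed 2-fold.

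Hormone and growth factor genes gave a few large differences. Klk1, the kinin-releasing tissue kallikrein, stood at -7.54 and -7.55 at E11.5 and E13.5, then at -1.46, 1.27 and 3.21, 3.81-fold higher at the last step. Its substrates Kng1 and Kng2 differed by 1.51 and 1.67. Of 13 measured members of the Klk1 family, gathered after the values were seen, 11 were higher, with a median of 1.73, but these genes are close copies and may share signal. Renin (Ren1) was level, at 2.33 and 2.36, and Ace, the angiotensin-converting enzyme, differed by 0.62. Igfals, the carrier subunit of circulating insulin-like growth factor, went from -3.22 to -1.31 (3.76-fold). Igf1 itself differed by 0.06.

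Genes of the nephrogenic zone leaned down, mostly by less than 2-fold. Of 14 nephron progenitor genes 3 were lower and none higher, with a median of -0.39. Over all genes compared 3.54% were lower and 4.28% higher, with a median of -0.06. Osr1, an early factor of the lineage, had declined over every stage (1.57, 0.72, 0.07, -0.87 and -2.18), and Gdnf, which drives branching of the ureteric bud, went from 2.56 to 1.46. Meox2 differed by -1.16. Six2, which keeps progenitors undifferentiated, differed by -0.77, with other probes down to -1.50, and Cited1 by -0.39. Of 12 ureteric tip genes Sox8 was lower (-1.04) while the receptor Ret differed by -0.64, and the median was -0.42. Among 16 genes of nephrogenic stroma Lum (-1.52), Foxd1 (-1.23) and Meis2 (-1.06) were lower and Crabp1 was higher (1.03). Early nephron genes, which mark renal vesicles and S-shaped bodies, had none of 14 past 2-fold and a median of -0.12. Hes5, a Notch target, was the furthest of them at -0.82.

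All 20 cell cycle genes differed downwards, but none by 2-fold, and the median was -0.45. Ccne1 went from 2.85 to 2.03, Top2a from 2.59 to 1.92 and Mki67 from 4.53 to 4.15. Oncofetal genes had the lowest median of the developmental lists (-0.70), with 2 of 16 lower. Igf2, the fetal growth factor, stood at 2.73, 3.12, 2.70, 2.17 and 0.59, so most of its decline came in the last step (2.99-fold). Lin28b, an RNA-binding protein that holds back let-7 maturation, fell over every stage from 2.13 at E11.5 to -4.19 at P0, by 1.49 in the last step. The imprinted genes Mest and H19 differed by -0.92 and -0.73. Of the oxidative phosphorylation subunits all 20 differed upwards with a median of 0.29, and Cox7a1, an isoform of mature muscle and other oxidative tissue, was the one past 2-fold (1.15). Such a count is near the 4.28% higher over all genes compared. All 19 ribosomal protein genes differed downwards, by at most 0.34, but 4 of them upwards when arrays were scaled to the median and 5 after quantile normalization. Among hypoxia and glycolysis genes Ndrg1 was higher (1.30) and Hk2, the hexokinase of growing cells, lower (-1.19). Scd2, a desaturase of fetal tissue, was the one of 17 sterol and SREBP genes past 2-fold (-1.23), beside 3.54% lower over all genes compared.

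Red cell genes had the lowest median of the 41 lists. Of 13 measured members 8 were lower and none higher, with a median of -2.09. The embryonic globin Hbb-y stood at 8.69, 8.56, 4.02, -1.37 and -5.08, and Hba-x, the embryonic alpha chain, fell from 4.01 at E13.5 to below background at P0, at least 9.32-fold under E17.5. The adult globins followed another course. Hbb-b1 had climbed from 1.41 to 5.07 between E11.5 and E17.5 and stood at 2.32 at P0 (6.76-fold lower), and Hbb-bt and Hba-a1 went from 8.12 and 8.30 to 5.56 and 6.20. Alas2, the heme synthesis enzyme of red cell precursors, had reached 2.54 and then stood at -0.48 (8.08-fold lower). Ahsp, which stabilises alpha globin, went from 1.60 to -1.44. Hba-x had thus fallen at every step and Hbb-y mainly from E13.5 on, whereas Hbb-b1, Hbb-bt, Hba-a1 and Alas2 had their highest level of the 5 stages at E17.5. The log2 of the summed signal of the list was 10.15 at E17.5 and 8.63 at P0. How much blood each kidney held is not recorded. Replicate organoid arrays also differed by up to 5.16 for Hbb-b1 and 4.11 for Alas2, with no background filter on the organoid signal.

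Histone H4 genes, which code for a core protein of chromatin, held both of the largest falls among genes above background on both arrays. H4c4 stood at 3.99, 7.32, 3.89, 7.81 and 2.83 over the 5 stages, 31.4-fold lower at P0 than at E17.5. H4f16 stood at 0.86, 3.64, 0.66, 4.36 and -0.37 (26.6-fold lower). H4c14, H4c12 and H4c11 were 14.3-fold, 12.6-fold and 11.2-fold lower, and the other probe of H4c14 gave -1.77 beside -3.84. These 5 genes were high at E13.5 and E17.5 and low on the other 3 kidney arrays, and they code for nearly the same protein, so their probes may share signal. Of the 9 H4 genes measured H4c3 was lower too (-1.59), while H4c8, H4c9 and H4c17 differed by -0.08 to -0.72. The H2A genes (H2ac symbols) had a median of -0.43 with 2 of 11 lower, and the H3 genes (H3c symbols) a median of -0.61 with 2 of 8 lower. H4c3 (0.98, 1.71, 1.04, 1.63 and 0.04), H2ac4 (6.43, 7.14, 6.33, 6.79 and 5.31) and H3c1 (-2.39, -1.40, -2.56, -1.25 and -3.10) alternated too, by less. Other histone genes such as H2ac10 (8.82, 8.98, 8.65, 8.36 and 7.98) did not. Cell cycle genes fell by less than 2-fold, as given above. The replicate organoid arrays differed by no more than 0.49 for the 5 H4 genes with the largest falls.

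The same zigzag was then looked for in all genes, after it had been seen in H4. In all, 23 genes were at least 2-fold higher at E13.5 and at E17.5 than at each of E11.5, E15.5 and P0, 9 of them above background on both compared arrays, and 7 genes had the opposite pattern. Slc22a3 belonged to the first set (-5.70, -1.73, -6.53, -2.90 and -7.29) and was at least 17-fold lower at P0. Zfp979, a zinc finger gene, belonged to the second (1.08, -5.29, 0.22 and -6.16 on the embryonic arrays). It gave the largest bound among the genes that could be named by the rule given below, at least 143-fold higher at P0 by its brighter probe. A second probe differed by only 2.61, so the size rests on 1 probe. Cyct, a testis cytochrome c, was another (at least 17.3-fold higher). ICR mice are outbred, and what sets these genes apart between arrays was not tested. Without all 30 genes the counts were 845 higher and 681 lower.

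**Figure D5:**
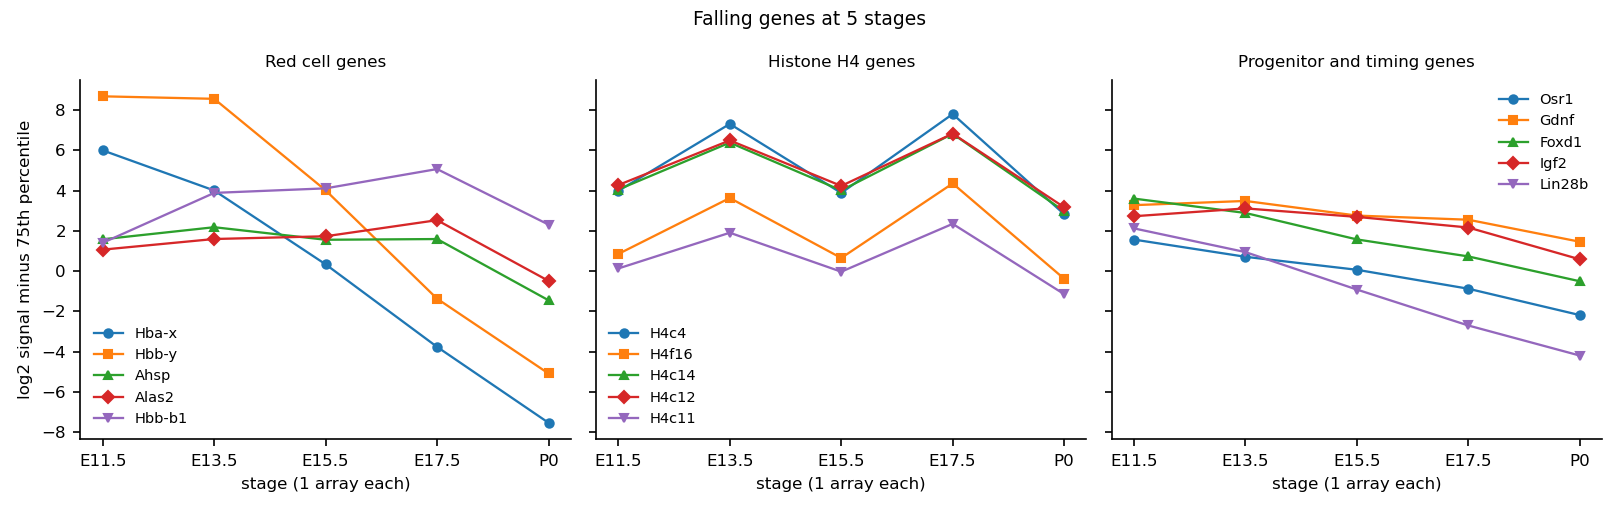
Levels (log2 signal minus 75th percentile) at 5 stages, 1 array each, of red cell genes, histone H4 genes and progenitor and timing genes. The embryonic globins were far lower at E17.5 and P0 than at E13.5, the adult globin Hbb-b1 and Alas2 dropped between E17.5 and P0, and the H4 genes alternated between high at E13.5 and E17.5 and low at E11.5, E15.5 and P0.

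Beyond the lists, the largest rises among genes above background on both arrays were led by Wnt10a, a secreted Wnt ligand, which stood at -1.20, -1.97, -0.38, -2.56 and 2.89 (43.7-fold at the last step). Ptprr, a tyrosine phosphatase, followed at 26.9-fold, with levels of -3.82 and 0.93. H2-Q1, a class Ib histocompatibility gene, went from -5.29 to -0.89 (21.2-fold), and Clec2h, a lectin-like receptor ligand, from -3.88 to 0.52 (21.1-fold). Angptl7 (19.9-fold), a secreted relative of Angptl4, and Slpi (17.8-fold), an inhibitor of neutrophil proteases, had been nearly level from E13.5 to E17.5. Each of these 6 genes had its highest level at P0, and each rests on 1 probe.

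Nkx6-2, a homeobox factor, was 12.7-fold higher and Mogat1, a monoacylglycerol acyltransferase, 11.3-fold. Serpina6, which encodes the carrier of corticosteroids in blood, went from 2.10 to 5.46 (10.3-fold), with 2 probes at 3.35 and 3.36. Defb19, a beta-defensin, was 8.70-fold higher. Espn, an actin bundler of microvilli, was 10.8-fold higher by one probe and differed by 0.35 by the other. From below background at E17.5, Fgb, the fibrinogen beta chain, was at least 52.0-fold higher (-0.93 at P0), the protease gene Klk15 at least 23.2-fold, Acot12, an acetyl-CoA thioesterase, at least 13.9-fold, the peptide carrier Slc15a1 at least 11.3-fold and Lyrm7, an assembly factor of the respiratory chain, at least 11-fold.

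Among the largest falls outside the globin and H4 genes, Myl2, a heart and slow muscle myosin light chain, stood between -4.79 and -4.11 up to E15.5, at -2.02 at E17.5 and at -5.47 at P0 (11-fold lower). Tgm5, a transglutaminase, was level at -0.20 to -0.78 over the embryonic stages and stood at -3.60 at P0 (7.06-fold lower). Pop4, a subunit of the RNA-processing enzymes RNase P and MRP, went from 3.48 to 0.63 (a difference of -2.85). Zfp605 was 8.30-fold lower, Samd4 7.00-fold and Rbbp9 6.82-fold, though other probes gave -1.25 for Zfp605 and -0.35 for Rbbp9. The genes with the largest bounds to below background at P0 were mostly seen on the E17.5 array alone. Olfr558 (at least 31.1-fold), Olfr62 (24.2-fold), Olfr1465 (13.9-fold) and Olfr725, all odorant receptors, Ccdc146 (13.8-fold) and Neurod4 (12.9-fold) were below -6.7 on the 4 other kidney arrays. Phactr3, a phosphatase regulator, fell from -3.03 to below background and had been at -3.75 and -3.04 at E11.5 and E13.5. Of 224 measured odorant receptor genes 40 were lower and 17 higher, beside 3.54% and 4.28% of all genes. Of the 144 above background on both arrays 10 were lower and 5 higher, and among genes of every kind seen on 1 array only 33.7% were lower and 21.1% higher.

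The earlier stages showed how the last step fitted the whole course. P0 was the highest of the 5 stages for 770 of the 852 higher genes (90.4%) and for 24.5% of all genes compared, which is partly built in by the choice of genes. The step from E13.5 to E15.5 shares no array with the last one. Over it 345 of the genes higher at P0 (40.5%) had already risen by at least 2-fold, beside 9.01% of all genes, and 77 of the lower genes (10.9%) had already fallen, beside 1.31%. Of these 77, 23 were the alternating genes, which had to fall over that step and stood high again at E17.5, and without them the count was 54 of 681 (7.93%). Genes of either group that moved the opposite way over that step were not counted. These shares therefore cannot tell a kept direction from genes that vary at many steps. Of the 704 lower genes 411 (58.4%, all genes 9.52%) had their highest level at E17.5. This too is partly built in, since the genes were chosen for a higher value at E17.5 than at P0. Only 281 of the 704 were well above background on both arrays. The steps E11.5 to E13.5, E13.5 to E15.5 and E15.5 to E17.5 had 1081, 1886 and 1072 genes higher and 1515, 337 and 510 lower, so the last step had the fewest higher genes of the 4.

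Markers of neighbouring tissue and of immune cells were read beside these results. The liver list had 2 of 7 measured members higher, Fgb and Serpina1a (1.32), while albumin (Alb) and Apoa1 were below background on both arrays, and the log2 of its summed signal was 2.78 at E17.5 and 3.35 at P0. The brown fat gene Ucp1 and the fat hormone Adipoq were below background, and so were the adrenal enzymes Cyp11b1 and Cyp11a1 and the muscle genes Myog and Ckm. Of 9 measured adrenal genes Hsd3b1 was higher and Dbh and Mc2r were lower, of 9 muscle genes Myl1 was lower, and of 10 neuron genes Nefl and Nefm were lower (-1.55 and -1.53). Hsd3b1 was not above background at E17.5, nor were Dbh, Myl1 and Nefm at P0. All 9 muscle genes differed downwards (7 with arrays scaled to the median), with a median of -0.34, and so did 9 of the 10 neuron genes, with a median of -0.51. No macrophage gene of 12 and no lymphocyte gene of 6 passed 2-fold. Of 16 interferon and antigen presentation genes 4 were higher, and the median was 0.66. Of the higher ones, Ifit1 and H2-Aa were not above background at E17.5. H2-Ab1, a class II chain, went from 0.58 to 1.74, and Usp18 from -3.82 to -2.70. Of 12 injury genes Spp1, Cxcl10 and the dim Cxcl1 were higher, while Lcn2 differed by 0.62 and Havcr1, the main injury marker of the proximal tubule, was below background. Among 13 neutrophil and mast cell genes S100a9 (1.03) and the dim Mcpt4 were higher, and Mpo, not above background at P0, was lower. Xist, which is made in female cells, was below background on both arrays, and the Y-linked Ddx3y differed by -0.03. On the E11.5, E13.5 and E15.5 arrays Xist stood at -0.18, -2.95 and -0.91, against -7.76 at E17.5 and -6.14 at P0. The earlier arrays may thus differ in sex from the compared ones. What this does to gene courses, such as that of Kap, was not tested.

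Repeat spots and second probes show part of the measurement error, but not the spread between samples. For 320 probes printed 10 times and above background on both arrays, the median SD over spots was 0.07 at E17.5 and at P0. Different probes of one gene agreed less closely, with an SD of 0.61 between their differences over 6735 second probes. Of 238 second probes for genes past 2-fold, 200 (84.0%) had the same direction and 117 were past 2-fold as well.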

How the data were processed

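Total RNA was labelled with Cy3 and hybridised to 12 one-colour Agilent 8x60K arrays. Per the file headers, Feature Extraction 11.5.1.1 subtracted the background from the deposited intensity (62976 spots per array) and corrected it, whereas the submitters' processing notes name 10.7.3.1. A second table of log2 values, deposited by the authors, equals log2 intensity minus 1 constant per array. From the processed intensity, control and outlier spots were left out, spots of a probe averaged, values put on the log2 scale and reduced by their array's 75th percentile, with Python 3.11.15, pandas 2.3.3 and numpy 2.4.6. Probes (55681) were named by accession or symbol through a RefSeq table of 49997 genes, and a gene was represented by its brightest probe, judged by the mean of the 12 arrays (27286 genes). No probe was saturated. Both arrays lay on 1 slide, and their number, 1 per stage, limits the precision.

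Named genes were the 15 largest differences each way above background on both arrays with other probes in the same direction, 8 each way by bound, and up to 5 per list (41 lists). Some other list members are named for their role, after their values were seen. Some genes that met the rule are not reported here. The members and lists were chosen with earlier results of these data known. Alternatives were normexp (limma 3.58.1, R 4.3.3, offset 50), other filters and thresholds, averaging over probes, the values in the authors' table, median scaling and quantile normalization. Leaving out the alternating genes was added after the data were seen.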

Additional observations from a re-analysis of the deposited data

How the results depend on the processing

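No paired analysis was possible because each stage has 1 array. For the same reason nothing could be left out, and precision is limited by the lack of kidney replicates. The number of genes 2-fold higher at P0 was 852, against 322 with normexp, 1332 without a background filter, 1954 at a 1.5-fold and 217 at a 4-fold threshold. The number lower was 704, against 77 with normexp, 281 where both arrays had to be well above background, 1297 without a filter, 1741 at 1.5-fold and 241 at 4-fold. Normexp with an offset draws dim values together by its construction. Other settings left both counts within 1.5 times. Of the list medians, the interferon list moved to 0.28 and the red cell list to -1.32 with normexp, the red cell list to -1.73 with both arrays above background, and the gluconeogenesis and liver lists to 0.92 and 0.74 with the mean of probes. In 323 other cases a list median moved by less than the SD between replicate organoid arrays. The number of list members past 2-fold in 1 direction moved by over 1.5 times in 22 cases with normexp (60 did not) and in 10 with both arrays above background (72 did not), for example from 11 to 6 higher xenobiotic enzymes and from 4 to 1 higher interferon genes with normexp. With normexp 79 named genes moved by more than the SD between replicate organoid arrays and 161 did not. Of the named genes, Esrrb changed direction with the mean of its probes (-0.79), and the others kept theirs wherever past 2-fold.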
